A study of Mus musculus with 2 samples.

Results

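Nucleosomes called at exactly the same place in 2 MNase-seq libraries of mouse embryonic stem (ES) cells are described here. A call is identical, chosen by its position, when its start and its end in the ethanol library both equal those of a tamoxifen call on the same autosome. Of 1289694 autosomal ethanol calls, 54804 met this rule (Poisson interval 54346 to 55265), which is 4.25% of the ethanol list and 3.88% of the 1413182 autosomal tamoxifen calls. The whole series holds 1300009 ethanol and 1424844 tamoxifen calls. The starts and ends in both libraries chose these nucleosomes, and with them their widths, so their number and width are descriptions and support nothing below.

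Both libraries come from ES cells with floxed Brg1 alleles (Brg1fl/fl) and a Cre recombinase fused to the estrogen receptor and driven by actin (Actin-CreER), kept on gelatin in serum and LIF. In the ethanol group the cells received the vehicle for 24 hours, and in the tamoxifen group 0.8 µM tamoxifen for the same time, which activates the recombinase. Both then grew for 48 hours in plain medium. Nuclei were digested with micrococcal nuclease, and DNA of mononucleosome size from the digest with 12 U went into each library. Each group has 1 library, so no difference below has a replicate check, no test was made, and intervals are 95% intervals for counting error only. The call lists do not measure Brg1 itself, and whether the gene was deleted in the tamoxifen cells was not analysed here. The number of reads behind each list is unknown, and the tamoxifen list is 9.57% longer on the autosomes.

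A nucleosome is a stretch of DNA wrapped around a histone octamer and joined to the next by linker DNA, which micrococcal nuclease cuts first. A well-positioned nucleosome occupies the same bases in most cells of a population, whereas a poorly positioned one is spread over overlapping places. DNA sequence, bound factors that act as barriers, and ATP-dependent remodelers are known to set these positions. Smarca4 encodes Brg1, the catalytic subunit of esBAF, which is the BAF complex of ES cells. The series asks how esBAF affects the spacing of nucleosomes near the binding sites of pluripotency factors.

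Identical calls were far more frequent than coincidences of displaced lists. When the 2 lists were displaced against each other by 1000 to 10000 bp, between 1686 and 1997 ethanol calls met the rule, with a mean of 1794.8 over 10 displacements. This is 0.131 to 0.155% of the calls, so identical positions were 30.5 times as frequent as the displaced mean. Displacement in the opposite direction gave 1680 to 1977. The files place all calls on a 10 bp grid, so identical means identical on that grid and not to the base.

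The excess was sharp and was repeated at the distance of neighbouring nucleosomes. With the ethanol list displaced by 10 bp, 2.55% of its calls met the rule, by 20 bp 0.967% and by 30 bp 0.353%. The share was lowest at 80 bp, with 0.0439%, a distance at which calls of one list would overlap. It rose again to 0.367% at 190 bp, 0.207% at 370 bp and 0.176% at 570 bp, between which it fell to 0.1199% at 300 bp and 0.126% at 500 bp. In the other direction the peaks stood at -190, -370 and -560 bp. A call of the same width therefore recurred in the other library about 1 nucleosome repeat away more often than at distances between repeats.

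**Figure D1:**
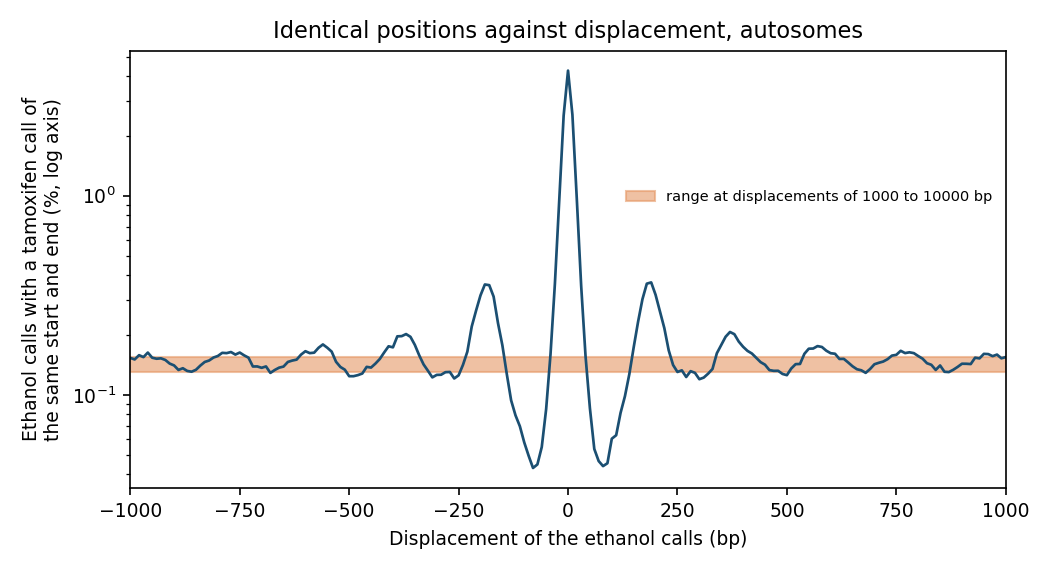
Share of autosomal ethanol calls with a tamoxifen call of the same start and end (log axis) against the displacement of the ethanol list in bp. The band is the range at displacements of 1000 to 10000 bp, 0.131 to 0.155%. The line reaches 4.25% without displacement and has side peaks of 0.367 and 0.358% at 190 bp on either side.

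Each offset just outside the rule was less common than identity. A tamoxifen call shared one end with an ethanol call and differed by 10 bp at the other in 30646 to 31094 cases, depending on the end and the direction, and in 123381 cases in all. Both ends were off by 10 bp in the same direction, a shift of the whole call, in 65540 cases. They were off by 10 bp in opposite directions, a change of width around the same centre, in 27998 cases. Median ethanol scores were 101.6 to 114.4 for calls with one end off by 10 bp and 114.9 for identical calls, and median widths were 90 to 100 bp and 90 bp. Calls with opposite ends off had a median width of 110 bp and a median score of 110.9 where the tamoxifen call was the narrower. Where it was the wider, the medians were 90 bp and 98.6. No call is narrower than 80 bp, so a narrower tamoxifen call requires a wider ethanol call, and these widths are partly built in.

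Calls that shared a start often shared the end as well. A tamoxifen call with the same start, whatever its end, was present for 13.4% of ethanol calls, and one with the same end for 13.5%. Among the calls with the same start, 31.6% also had the same end. An ethanol and a tamoxifen call drawn without regard to place had the same width in 13.9% of cases. With both ends allowed to differ by up to 10 bp, 21.1% of ethanol calls had a partner.

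Identical calls were narrow. They averaged 96.0 bp (SD 16.2 over 54804 calls), against 113.0 bp (SD 30.2) for the other 1234890 ethanol calls and 112.9 bp (SD 30.1) for the other tamoxifen calls. Calls of 80 to 100 bp made up 84.8% of identical calls and 53.5% of the others, and calls of 150 bp or more 2.80% and 15.5%. Coincidences of the displaced lists had a similar make-up, with a mean of 98.4 bp and 79.6% at 80 to 100 bp. Both identical calls and displaced coincidences were thus narrower than the other calls.

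The share of identical calls was lower at greater widths, while its ratio to the displaced share was not. It was 6.33% at 80 bp (Wilson interval 6.21 to 6.46%), 8.32% at 90 bp (8.22 to 8.41%), 4.63% at 100 bp and 2.39% at 110 bp. At 150 bp it was 1.06%, at 180 bp 0.496%, and at 200 bp 0.184% (0.113 to 0.299%). Relative to the displaced lists, calls of 80 to 90 bp were identical 36.7 times as often, calls of 100 to 140 bp 23.2 times, calls of 150 to 170 bp 31.4 times, and calls of 180 to 240 bp 40.8 times. The last class rests on 204 identical calls among 60675 and a displaced mean of 5.0. The narrowest and the widest calls thus had the higher ratios, and calls of middle width the lowest.

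Identical calls also had high scores, a property that coincidences of displaced lists had far less. The score is the authors' own value per call, from 50.1 to 3250 in both lists, and serves here to rank calls within a list. Its median was 114.9 for identical calls in the ethanol list (quartiles 76.7 and 188.3), 86.0 for the other ethanol calls (64.9 and 126.8), and 88.9 for displaced coincidences. In the tamoxifen list the medians were 117.5 for identical and 85.8 for other calls. Of identical calls, 22.2% belonged to the highest decile of the ethanol list.

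The share of identical calls rose from 2.24% (Wilson interval 2.17 to 2.33%) in the lowest decile of the ethanol list by score, 50.1 to 55.5, to 9.46% (9.30 to 9.62%) in the highest, 197.2 and above. Tied scores stay in one decile, and the rise was not strict, since deciles 3 (2.59%) and 5 (3.25%) did not exceed deciles 2 (2.60%) and 4 (3.27%). The displaced share moved only from 0.128 to 0.154%, so the ratio went from 17.6 to 61.4. Ranked by the tamoxifen score, the share rose from 1.64 to 9.18%. The rise was also seen within a width. Among calls of 90 bp it was 4.15% in the lowest score quintile and 17.7% (17.4 to 18.1%) in the highest, and among calls of 120 bp 0.883% and 2.74%. For calls of 80 bp it was 3.14% and 17.8% (17.2 to 18.5%), the last not distinguishable from calls of 90 bp.

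**Figure D2:**
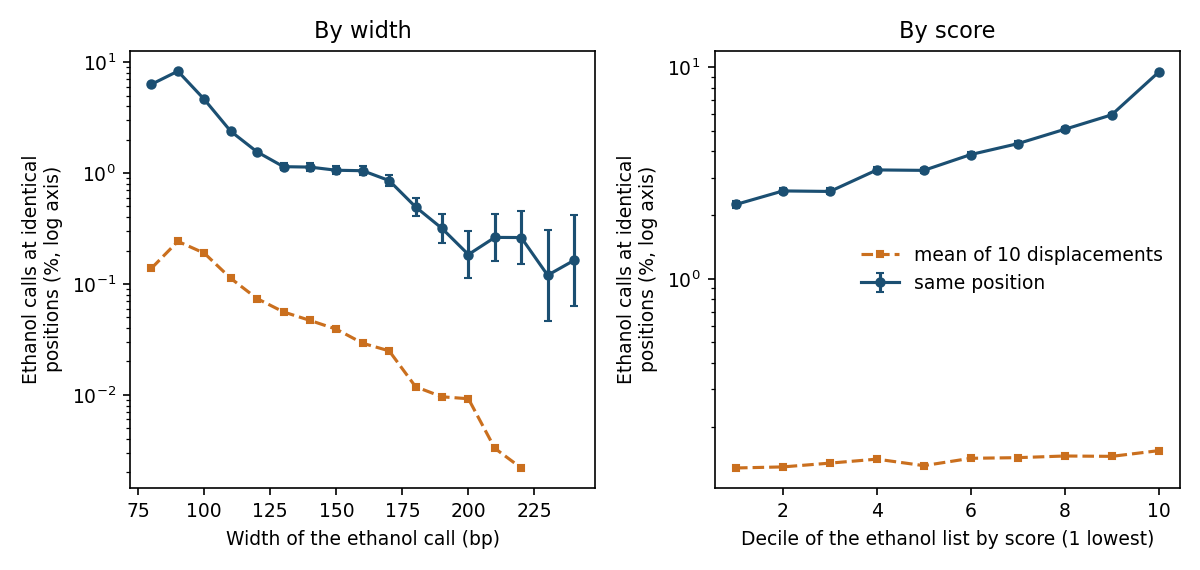
Share of autosomal ethanol calls at identical positions (log axes) by width in bp on the left and by decile of the ethanol score on the right. Circles are observed shares with Wilson intervals, squares the mean of 10 displacements, absent where no displaced call coincided. The share peaks at 8.32% for 90 bp and at 9.46% in the highest decile, whereas the displaced share hardly moves with score.

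Calls at the maximum score of 3250 were identical far more often than calls of the highest decile as a whole. Of 645 such autosomal ethanol calls, 289 were identical, which is 44.8% (Wilson interval 41.0 to 48.7%). The tamoxifen call was also at the maximum in 277 of these 289. The 10 kb windows with a call at the maximum in either list number 308 and hold 0.296% of ethanol calls and 1.26% of identical calls. The closing section gives the main values without these windows.

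Scores of the same nucleosome were related between the libraries. Across the 54804 identical calls, Spearman's rank correlation between ethanol and tamoxifen score was 0.65. It was 0.57 across 216919 pairs with both ends within 10 bp but not identical, 0.51 across 168807 pairs within 20 bp but not within 10 bp, and 0.05 to 0.14 among coincidences of the 10 displaced lists. These are descriptions across calls that share a library, a score cutoff and local read coverage. The rank of an identical call within its list differed by a median of 13.4 percentile points between the libraries, against 15.6 for pairs within 10 bp and 26.8 for displaced coincidences.

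Identical calls stayed in the same decile most often at the upper end of the scores, where they were also most numerous in both lists. Of 12150 identical calls in the highest ethanol decile, 72.1% were in the highest tamoxifen decile, against 65.8% of the pairs within 10 bp and 19.1% of the displaced coincidences. Of 2897 identical calls in the lowest ethanol decile, 11.1% were in the lowest tamoxifen decile, whereas 2449 of all 54804 identical calls were in that tamoxifen decile. In the highest tamoxifen decile were 38 of these 2897, or 1.31%, against 12975 of the 54804. Calls of the lowest ethanol decile were thus spread over the lower and middle tamoxifen deciles and were rare in the highest. The rank correlation was 0.65 for identical calls of 80 to 90 bp, 0.64 for 100 to 140 bp and 0.72 for the 1537 calls of 150 bp or more. Per autosome it ran from 0.58 on chromosome 13 to 0.72 on chromosome 8.

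**Figure D3:**
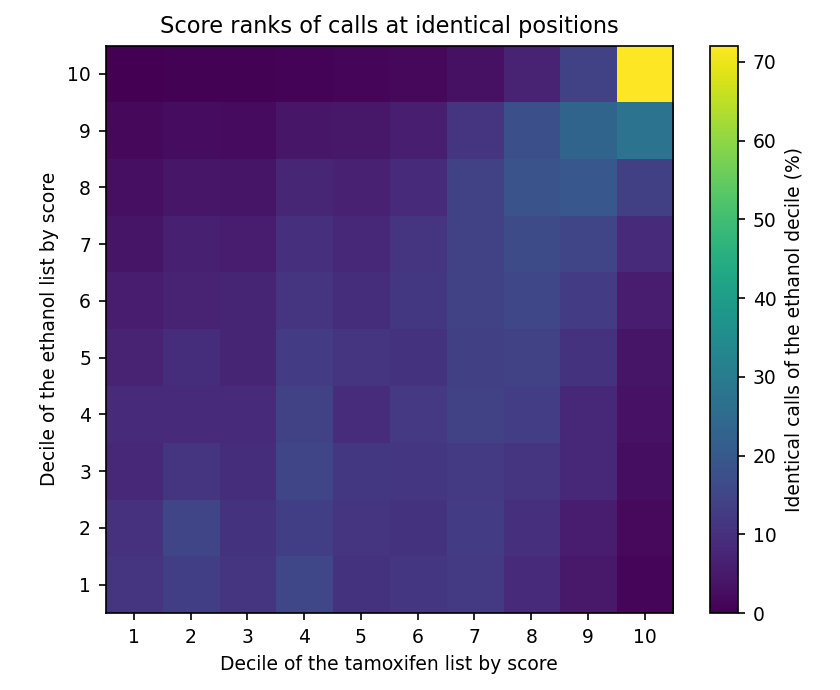
Identical calls by decile of the ethanol list (vertical) and of the tamoxifen list (horizontal), decile 10 being the highest scores. Colour is the percentage of the identical calls of an ethanol decile. The upper right cell holds 72.1%, and the lowest row is spread over most tamoxifen deciles, with 11.1% in its first cell.

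The frequency of identical calls was similar on most chromosomes. On 17 of the 19 autosomes it lay between 3.999 and 4.32%, with a median of 4.13%. It was 4.90% (Wilson interval 4.78 to 5.02%) on chromosome 8 and 4.78% (4.65 to 4.92%) on chromosome 12, which also carry more calls. The displaced share was higher there too, 0.218 and 0.199% against 0.0938 to 0.150% on the other autosomes. Applying the rates of those other autosomes for each width and score decile gave 5.16% for chromosome 8 and 4.84% for chromosome 12, the first above the observed share and the second within its interval.

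The share of identical calls differed little with call density along the chromosomes. Windows of 100 kb were ranked into 10 classes by their calls in both libraries together. The share of identical calls was 4.11% (Wilson interval 3.83 to 4.40%) in the sparsest class, with at most 23 calls per window, 3.97% (3.88 to 4.07%) in the seventh class, the lowest, and 4.55% (4.49 to 4.62%) in the densest class, with 238 to 604 calls. Over the same classes the displaced share rose from 0.0119 to 0.241%. Identical calls were thus 345 times as frequent as displaced coincidences in the sparsest windows and 18.9 times in the densest. This ratio fell because the displaced share rose, while the share of identical calls hardly changed. The first ratio rests on very few displaced coincidences, 0.0119% of 18507 calls. The median score of all ethanol calls rose with density, from 72.4 to 98.2. Scores and widths were not matched between the classes, so an effect of density by itself was not tested.

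Identical nucleosomes had close neighbours more often. The next ethanol call lay 140 to 400 bp away for 31.6% of identical calls (Wilson interval 31.2 to 32.0%) and for 27.3% (27.2 to 27.3%) of the others, a difference of 4.34 percentage points (3.94 to 4.74). The difference was above 0 on 19 of 19 autosomes, with a range of 1.71 to 5.51 points. Within score deciles it averaged 2.18 points, ranging from 0.656 to 3.45, smaller than over all calls. The median distance to the next call was 750 bp for identical and 820 bp for other calls.

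Most of the extra neighbours stood at about 1 nucleosome repeat. A next call 175 to 205 bp away followed 8.76% of identical calls and 6.23% of the others, 1.41 times as many. For 140 to 170 bp the shares were 4.27 and 3.30%. For 210 to 250 bp they were 5.97 and 5.74%, for 255 to 295 bp 3.75 and 3.63%, and for 300 to 400 bp 8.86 and 8.36%. Very close calls, 80 to 130 bp apart, were rarer after identical calls, with 0.405 against 0.757%. Widths were not matched in this comparison.

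Seen from identical calls, the surrounding nucleosomes formed a sharper first peak than around other calls. Per 100 identical calls there were 33.0 ethanol calls 150 to 230 bp away on either side, against 25.3 per 100 other ethanol calls, and the count was higher on 19 of 19 autosomes. The first peak stood at 185 bp and was 50 bp wide midway between its top and the following trough. Around other ethanol calls it stood at 190 bp and was 60 bp wide. The peak was 3.51 times the trough around identical calls and 2.39 times around others. Around the 385726 ethanol calls with a tamoxifen partner within 20 bp at both ends but not identical, there were 30.2 calls per 100, the peak was 55 bp wide and 3.20 times the trough. The sharper first peak was thus largely shared by these near positions. For identical and other calls above the median score the peak over trough values were 3.57 and 2.38, and below it 3.35 and 2.42, so the difference was present at high and at low scores. Widths of identical and other calls were not matched, here or in the contrast that follows.

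Further out, the difference between identical and other calls was smaller. The periodicity contrast sets calls 350 to 410 bp from an anchor, 2 repeats away, against calls 260 to 320 bp away, between repeats. Among ethanol calls it was 1.52 (interval 1.47 to 1.57) around identical calls and 1.39 (1.38 to 1.40) around the others. It was higher around identical calls on 16 of 19 autosomes and lower on chromosomes 6, 11 and 18. Around the 385726 near but not identical calls it was 1.62 (1.60 to 1.64), above the value for identical calls. Among pairs of identical calls alone it was 1.33 (1.12 to 1.57), against 1.39 (1.37 to 1.40) among pairs of other ethanol calls and 1.53 (1.52 to 1.55) among pairs of other tamoxifen calls. Pairs share calls, so these intervals are too narrow.

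Around the same identical nucleosomes, the contrast was higher among tamoxifen calls than among ethanol calls. It was 1.72 (interval 1.67 to 1.78) with tamoxifen and 1.52 with ethanol, a ratio of 1.13 (1.08 to 1.19), and it was higher on 19 of 19 autosomes. Over the other calls of each list the ratio was 1.11 (1.09 to 1.12), and over pairs within 20 bp but not identical 1.08 (1.06 to 1.10). Relative to ethanol calls around identical nucleosomes, tamoxifen calls were 1.05 times as many (interval 1.03 to 1.07) at 150 to 230 bp, 1.12 times (1.09 to 1.15) at 350 to 410 bp and 0.990 times (0.956 to 1.03) at 260 to 320 bp. The list as a whole is 1.10 times as long, which lies within the interval at 2 repeats and above those of the other ranges. The peaks were at 185, 370 and 560 bp in both libraries. With 1 library per group, treatment, digestion and sequencing depth cannot be told apart here.

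**Figure D4:**
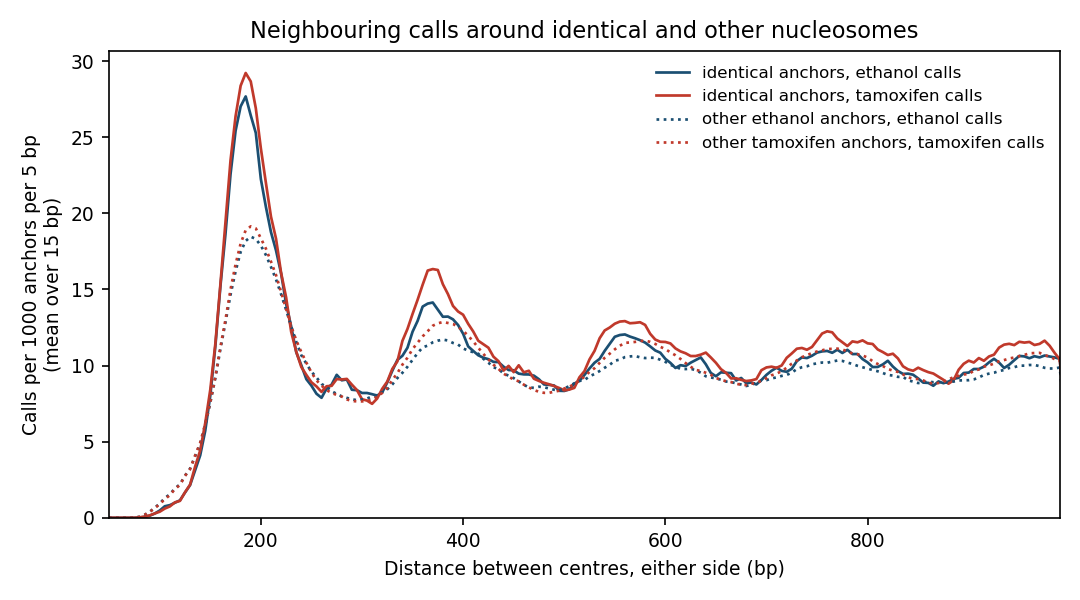
Calls per 1000 anchors in 5 bp bins, averaged over 15 bp, against the distance between centres on either side. Solid lines are centred on identical calls and dotted lines on all other calls of each list, blue for ethanol and red for tamoxifen calls. The first peak at 185 bp is higher around identical calls, and the tamoxifen line exceeds the ethanol line at 370 bp, while the lines cross between 260 and 320 bp.

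Identical calls occurred next to each other more often than next to other calls. After an identical call, 5.72% of next ethanol calls were identical (Wilson interval 5.53 to 5.92%), and after any other call 4.18% (4.15 to 4.22%), a ratio of 1.37 (1.32 to 1.42). The ratio was above 1 on 19 of 19 autosomes, from 1.17 to 1.53. It was 1.26 as a mean over score deciles of the second call and 1.27 as a mean over its widths of 80 to 120 bp.

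The clustering was seen at distances under 600 bp. For calls 80 to 135 bp apart the ratio was 1.88 (interval 1.11 to 3.17), from only 298 calls after an identical call. For calls 140 to 165 bp apart, 12.4% were identical after an identical call and 4.70% after another, a ratio of 2.63 (interval 2.30 to 3.01). For 170 to 210 bp the shares were 10.7 and 5.53%, a ratio of 1.94 (1.79 to 2.10). The ratio was 1.56 for 215 to 255 bp, 1.85 for 260 to 320 bp, 1.43 for 325 to 410 bp and 1.25 for 415 to 595 bp. From 600 bp on, the intervals of all 4 classes included 1, with 1.07 (0.964 to 1.19) for 600 to 995 bp and 1.02 (0.880 to 1.18) beyond 5000 bp. Without the 10 kb windows that hold a maximum score, the ratio was 2.61 for 140 to 165 bp and 1.92 for 170 to 210 bp.

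**Figure D5:**
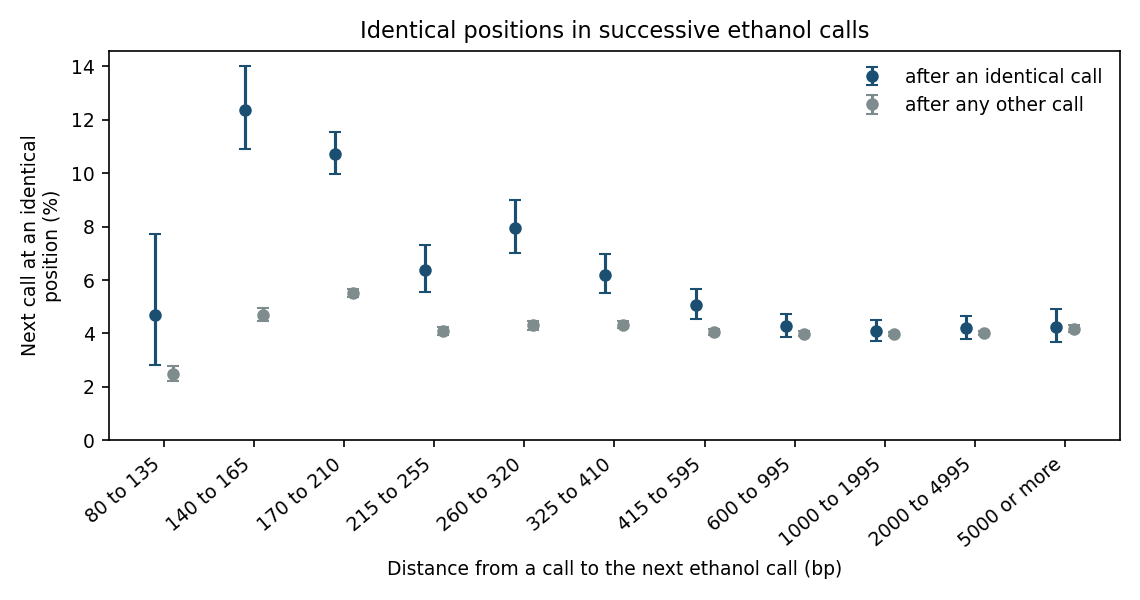
Share of next ethanol calls at identical positions, with Wilson intervals, by distance to the preceding call in bp. Blue points follow an identical call and grey points any other call. The blue points lie highest, at 12.4%, for 140 to 165 bp and come down, with a rise at 260 to 320 bp, to 4.28% at 600 to 995 bp, where their interval includes the grey value.

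A looser criterion gave the same order at short distances. The next call had a tamoxifen centre within 20 bp in 63.6% of cases when it lay 170 to 210 bp after an identical call. After another call at that distance it did so in 50.4%, and after another call that itself had such a partner in 55.8%. At 1000 to 1995 bp the shares were 43.6, 43.8 and 44.2%. At 170 to 210 bp, the place of a neighbour was therefore shared more often beside an identical call than beside one only near its partner. Scores and widths were not matched in this comparison.

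Most identical calls stood alone. With 4.25% of ethanol calls identical, most would also do so if calls were independent. In the ethanol list by itself, 48772 had no identical call directly before or after them. Of the 54804, 49999 (91.2%) were not followed or preceded, in both lists at once, by another identical call. The remaining 4805 formed 2314 runs without any other call of either library between them, namely 2157 pairs, 140 runs of 3, 15 of 4, 1 of 5 and 1 of 6. Displaced lists gave 3.8 pairs on average and no longer run. They held only 1794.8 identical calls on average, so runs were bound to be far fewer there, whatever the clustering. The ratio of 1.37 given above is the measure of clustering. In the 2157 observed pairs, 36.3% of the distances were 150 to 230 bp, against 12.8% of all successive ethanol calls. The pairs exclude any with a tamoxifen call in between, which is likelier in a wide gap, and the comparison has no such filter. Part of this difference can therefore come from the selection. The median distance from an identical call to the nearest other one was 9495 bp, and 11.3% had one within 1000 bp.

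The longest run lies on chromosome 9, from 3010851 to 3013161 (mm9, positions as in the files). Its 6 calls, 80 or 90 bp wide and separated by 725, 165, 495, 565 and 280 bp, all had the maximum score of 3250 in both libraries. The run of 5 lies on chromosome 1 from 85328861 to 85330091, with centres 195, 190, 365 and 385 bp apart, that is, close to 1, 1, 2 and 2 repeats. Its ethanol scores were 590.7, 953.4, 390.1, 1440.3 and 1633.1, and its tamoxifen scores in the same order 841.7, 893.9, 537.0, 1590.3 and 1353.9. The order of the scores was almost the same in both libraries, the 2 highest calls exchanging places.

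Of the runs of 4, the 3 shortest lie on chromosomes 8 and 15. On chromosome 8 from 122303061 to 122303661 the steps were 180, 160 and 175 bp. Ethanol scores there were 85.8, 360.3, 350.5 and 736.4, and tamoxifen scores 85.8, 742.1, 221.8 and 433.4. The first call had the lowest score in both libraries. On chromosome 8 from 71998481 to 71999141 the steps were 175, 200 and 200 bp, with ethanol scores of 581.2, 2505.2, 3250 and 601.6 and tamoxifen scores of 899.6, 2596.7, 3250 and 759.5. The 2 inner calls had the higher scores in both libraries, and the lowest was the first with ethanol and the last with tamoxifen. On chromosome 15 from 75845561 to 75846281 the steps were 275, 180 and 180 bp, and the scores were moderate, 101.6 to 196.5 with ethanol and 128.7 to 221.0 with tamoxifen. No gene is named for these regions, since no annotation of mm9 was used here.

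Identical calls were more often part of regular arrays. An array is a series of 4 or more calls with steps of 150 to 230 bp, and the ethanol list has 5024 on the autosomes. They held 2.79% of identical calls (Wilson interval 2.66 to 2.93%) and 1.65% of other ethanol calls (1.63 to 1.67%), a ratio of 1.69 (1.61 to 1.78). Within score deciles the ratio averaged 1.45. In the tamoxifen arrays the shares were 3.01% of identical and 1.74% of other calls. Both lists placed 638 identical calls in an array. Inner calls of ethanol arrays were identical in 7.43% of cases (6.97 to 7.91%) and outermost calls in 6.49% (6.02 to 6.99%). Inner calls also had the higher median score, 108.1 against 104.5, and scores were not matched here.

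Few arrays were preserved as a whole at this resolution. Of the 5024 arrays, 3754 held no identical call, 1050 held 1, 184 held 2, 31 held 3 and 5 held 4. Displaced lists left 52.3 arrays with 1 identical call and 0.7 with 2, on average. They held far fewer identical calls, so such low counts were bound to arise and say nothing about arrays. With 7.43% of inner and 6.49% of outermost array calls identical, arrays of identical calls alone would be rare if calls were independent. Only the run on chromosome 8 from 71998481 to 71999141 was an array made up of identical calls alone. An ethanol array without identical calls overlapped a tamoxifen array in 21.0% of cases (Wilson interval 19.7 to 22.3%), one with 1 in 32.9%, one with 2 in 56.5%, and one with 3 in 87.1% (71.1 to 94.9%, 27 of 31). Identical calls contribute to that overlap by themselves, since they stand in both lists.

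Windows of 10 kb with many identical calls held many calls at the maximum score. The window with most, chromosome 9 from 3010001 to 3020000, had 20 ethanol calls, of which 13 were identical and 20 at the maximum. The next 3 lie on chromosome 11, starting at 3040001, 3060001 and 3070001, with 13, 13 and 12 identical calls among 32, 33 and 32, and 22, 24 and 19 at the maximum. The fifth, chromosome 8 from 19920001 to 19930000, had 11 among 32, with 17 at the maximum. Together these 5 windows hold 62 identical calls, 0.113% of all. What DNA they contain was not analysed here.

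Among 44584 windows with at least 10 ethanol calls, 25033 held no identical call and 1133 had a share of 20% or more. Over all autosomal ethanol calls the share was 4.25%, so many windows with few calls would lack identical calls by chance. Whether these counts differ from random placement was not tested. The highest share after the window on chromosome 9 (65.0%) was 56.2% on chromosome 17 from 39980001 to 39990000, where 9 of 16 calls were identical and all 16 at the maximum. It was followed by 45.0%, 9 of 20, on chromosome 11 from 3020001 to 3030000. The lowest shares, ranked by number of calls, were on chromosome 8, at 124760001 to 124770000 (0 of 38, Wilson interval up to 9.18%), 122810001 to 122820000 and 122880001 to 122890000 (0 of 35 each, up to 9.89%). These windows had 32 to 34 tamoxifen calls, and their median ethanol scores of 126.6 to 130.9 were above the 86.0 of the other ethanol calls. They were picked as extremes of many windows, which the intervals leave out of account.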

How the data were processed

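Each library has 1 deposited list of called nucleosomes with chromosome, start, end, name and score. Per the submitters' processing notes, reads were aligned with Bowtie 0.12.9 to mm9. How nucleosomes were called, which cutoffs applied, how duplicates were handled and what the score measures were not given in the sources used here. Calls were ranked within a list by the deposited score. A nucleosome absent from a list may lie below an unknown cutoff, and read depth is unknown.

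Groups follow the sample titles. Autosomal calls were matched by start and end. The centre is the midpoint, and displaced lists give the background. Shares have Wilson intervals, counts exact Poisson intervals, ratios of shares and contrasts log-scale intervals. Deciles are by score rank. No test was made. The identical calls, measures and limits were chosen with earlier results of these data known. Regions named are the 5 longest runs (ties by shorter span), up to 5 arrays of identical calls alone, the 5 windows of 10 kb with most identical calls, and the 3 highest and 3 lowest shares among windows with at least 10 ethanol calls. The code was tested on simulated data. Alternatives are in the closing section. Calculations used matplotlib 3.10.9, scipy 1.17.1, pandas 2.3.3 and numpy 2.4.6 under Python 3.11.15.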

Additional observations from a re-analysis of the deposited data

Results flagged for a closer look

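The X and Y chromosomes and the mitochondrial genome lie outside the autosomal rule and held identical calls above the displaced level. On the X chromosome 825 of 9935 ethanol calls were identical, 8.30% (Wilson interval 7.78 to 8.86%), against 6 to 16 calls after displacement. Autosomal rates for the same widths and scores would give 5.64%. The median score was 83.6 for all X calls and 156.5 for the identical ones, against 114.9 for identical autosomal calls. At the maximum score were 47 of the 9935 X calls, against 645 of 1289694 on the autosomes. Spearman's rank correlation between the scores of these 825 calls was 0.84. On the Y chromosome 60 of 324 calls were identical, 18.5% (14.7 to 23.1%), with 0 to 2 after displacement, and 40 of the 324 were at the maximum score. In the mitochondrial genome 17 of 56 calls were identical, 30.4% (19.9 to 43.3%), with 0 to 1 after displacement, and 25 of the 56 were at the maximum score. Displacement can carry calls past the end of this short genome, so its displaced count is a weak comparison. These shares are values from 1 library per group, and their cause was not tested.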

How the results depend on the processing

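Of 40 alternative values with a counting interval of the main value, 17 stayed within it and 23 did not. The rank correlation has no such interval. With so many calls the intervals are narrow. The share of 4.25% became 13.4% for the same start, 13.5% for the same end, 21.1% within 10 bp, 4.62% with each list limited to scores not below its median, 4.09% with as many top-scoring tamoxifen calls as ethanol calls, 4.13% without chromosomes 8 and 12, and 4.21% without windows that hold a maximum score. Over displacement, the ratio of 30.5 became 13.8, 13.8, 19.9, 57.6, 32.1 and 33.0 under the first 6 of these. The rank correlation of 0.65 was 0.646 without maximum scores, 0.635 without chromosomes 8 and 12, 0.641 without those windows and 0.572 for pairs within 10 bp but not identical. The neighbour difference of 4.34 points was 3.87 within 300 bp and 2.18 within score deciles. The contrast among identical calls alone, 1.33 (interval 1.12 to 1.57, from 315 and 237 pairs), was 1.04 (0.848 to 1.27) among scores not below the median, so it is not settled. The clustering ratio of 1.37 was 1.86 for calls 140 to 400 bp apart, 1.03 beyond 1000 bp, 1.26 within score deciles and 1.27 within widths. The array ratio of 1.69 was 1.49 for at least 3 calls, 1.80 for steps of 170 to 210 bp and 1.45 within score deciles. Without the windows that hold a maximum score, the neighbour difference was 4.12 points, the contrast among identical calls 1.35, the clustering ratio 1.34 and the array ratio 1.68. Apart from what each alternative changes by construction, the cause was not tested. The alternatives without maximum scores (except for the rank correlation) or their windows, within widths, and within deciles for arrays were added after seeing the data. No paired analysis was possible because there is only 1 library in either group.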
